A study of Mus musculus with 20 samples.

Results

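miR-378 and miR-378*, the 2 mature strands of 1 hairpin, were followed in the left ventricle of the mouse heart. The animals, C57BL/6J males, had either transverse aortic banding (TAB), which narrows the aorta and makes the ventricle pump against a higher pressure, or a sham operation. They were taken as the 2 probes of the deposited raw file whose name is mmu-miR-378 or mmu-miR-378*, among 1086 mouse miRNA probes, of which 928 were tested. Both members passed the filter on spot flags. The mice were 8 weeks old when operated, and hearts were taken on days 3, 5, 7, 14, and 28. Each surgery and day had 2 arrays, which the methods of the study call technical replicates, so the mean of 2 arrays was 1 sample and each surgery had 5 samples. The number of hearts behind an array is not given in the sources used here, and the TAB day 14 samples carry a condition label of 15 days beside a title of 14 days.

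A miRNA is a short RNA that guides silencing complexes to mRNAs with matching sites. One strand of the hairpin usually loads more often, and in the naming used by the array the star marks the strand thought to be the minor one. The RefSeq annotation of mouse places the hairpin gene, Mir378a, within the span of Ppargc1b, which encodes PGC-1β, a coactivator of genes for mitochondria and fatty acid oxidation. miR-378 is abundant in heart and skeletal muscle. In cultured heart muscle cells and mice it is known to repress the IGF1 receptor and members of the MAP kinase pathway, and mice without both strands are known for a raised oxidative metabolism. miR-378* is known from human breast cancer cells, where it represses partners of PGC-1β. The probes read the mature strands and not the hairpin or the host mRNA.

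One further probe of the array carried the family name. It was meant for miR-378b, which comes from another hairpin on chromosome 11, and is shown here because its values are set beside those of miR-378. Its mature sequence from RefSeq (GRCm38.p6), 5′ to 3′ and with the seed (bases 2 to 8) in capitals, was:
miR-378b: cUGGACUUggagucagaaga
How much of the signal of this probe comes from miR-378 itself was not tested.

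The arrays differed in brightness by surgery. On the 10 TAB arrays the 75th percentile of raw intensity ran from 180 to 288, below the 303 to 444 of all 10 sham arrays. The median of the empty spots, at 65 to 73 in TAB and 68 to 74 in sham, differed less. The levels below were therefore quantile-normalized over the 20 arrays, and the part that this scaling plays is given beside the main results. Strand pairs of other hairpins, the order of the conditions, and the summed marker levels are given with this scaling only. The labels name no batch, and one that followed the operation and the operation itself cannot be told apart. The p-values measure the spread between these samples or arrays only. Over all miRNAs, sham day 14 was least like the rest of its surgery (r = 0.987 with the mean of the other 4, against 0.994 to 0.997 for the 9 remaining samples), so values without day 14 are also given. In whole ventricle, fewer cells of a type and less RNA per cell cannot be told apart.

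miR-378 was lower in TAB than in sham on most days. Raw intensities ran from 2693 to 6970 over the TAB arrays (median 4620) and from 5985 to 16303 over the sham arrays (median 8409), which is 41.4 to 240 times the empty spots. All 3 of its spots were without a negative flag on every array, and their coefficient of variation had a median of 7.00% on TAB and 6.60% on sham arrays. The raw ranges overlapped only between 5985 and 6970.

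After normalization the log2 intensity of miR-378 in TAB was 12.56 on day 3, 12.08 on day 5, 12.75 on day 7, 12.22 on day 14, and 12.57 on day 28. In sham it was 12.92, 12.89, 13.11, 13.20, and 12.56 on the same days. TAB days 5 and 14 lay below every sham sample, and sham day 28 was the lowest sham sample, level with TAB days 3 and 28, so the groups overlapped. The mean was 12.94 ± 0.25 in sham and 12.44 ± 0.28 in TAB (SD, n = 5 each), a 1.41-fold fall (log2 difference -0.50 ± 0.15, SE; 95% interval -0.86 to -0.14; limma adjusted p = 0.0403). Since each sample is from a day of its own, these SDs also hold changes over time. TAB was lower on 4 of 5 days, and 40.1% of all miRNAs were lower on at least 4 days. In the same test 21.8% of all 928 miRNAs were called lowered and 19.3% raised. These shares were 11.9% and 63.9% with each array scaled to its 75th percentile, and 53.9% and 2.91% without scaling.

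The call of miR-378 was not stable. Leaving out 1 day ended it for day 3 (adjusted p = 0.0851), for day 5 (0.114), for day 7 (0.0874), and for day 14 (0.0723). It was also lost without the second array of each pair (0.123), under the 75th percentile (difference -0.27, adjusted p = 0.0977), and in the processed table (0.0887). The same was so with normexp background correction followed by 75th percentile scaling (0.0844), a setting called normexp below. The direction was the same in all 19 alternatives, with differences of -0.97 to -0.27. Scaling moved the median of all miRNAs as well: it was -0.02 with quantile normalization, 0.40 under the 75th percentile, and -0.25 without scaling. Relative to that median miR-378 stood at -0.48, -0.67, and -0.67, respectively.

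miR-378*, the star strand, did not follow. Raw intensities of its probe ran from 230 to 481 over the TAB arrays (median 379) and from 352 to 792 over the sham arrays (median 474), only 3.54 to 11.6 times the empty spots. It too was found on all 20 arrays. The normalized log2 intensity of miR-378* in TAB was 9.10 on day 3, 8.43 on day 5, 8.78 on day 7, 8.58 on day 14, and 9.07 on day 28. In sham it was 8.45, 8.76, 8.70, 8.81, and 8.45. TAB days 3 and 28 were the 2 highest samples and TAB day 5 the lowest, so TAB spanned the whole sham range. The means were 8.79 ± 0.29 in TAB and 8.63 ± 0.17 in sham (SD, n = 5 each), and the difference did not pass (0.16 ± 0.17, SE; 95% interval -0.27 to 0.58; limma adjusted p = 0.497). Its direction depended on the scaling: it was -0.53 without scaling (adjusted p = 0.0590), and -0.52 with a quantile target per surgery (adjusted p = 0.0330), which keeps the dimness of the TAB arrays. Its distance from the median of all miRNAs was 0.17 as normalized here and -0.28 with the arrays set to their 75th percentile.

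**Figure D1:**
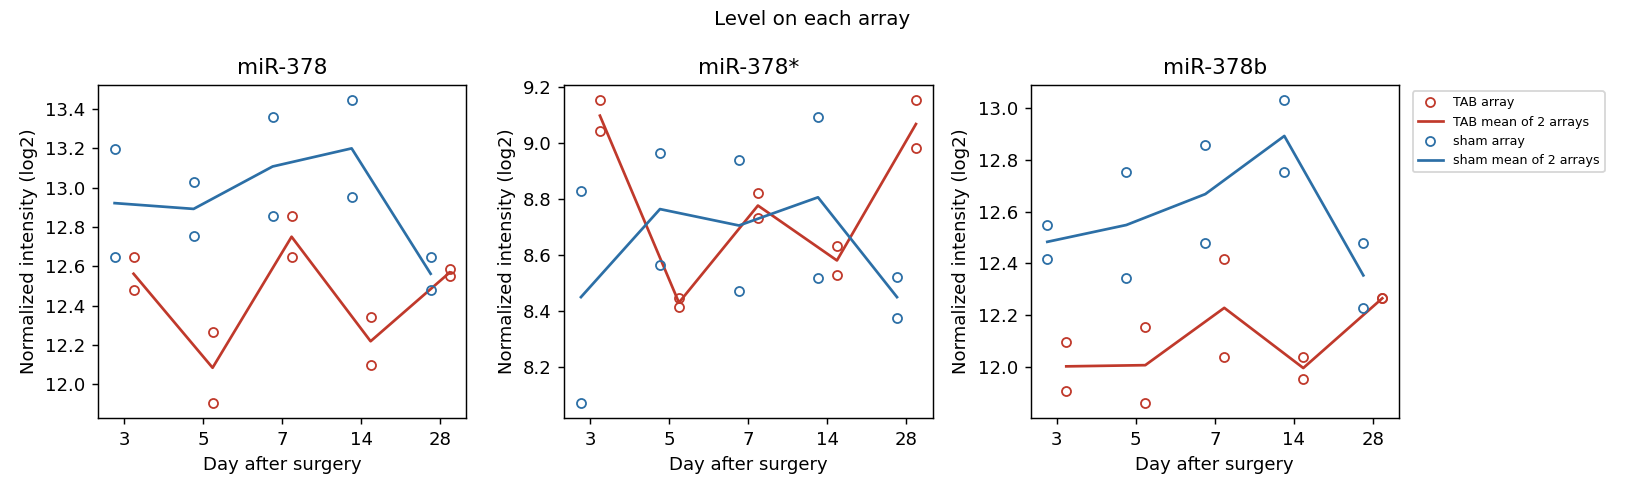
Normalized intensity (log2, vertical axis) of miR-378, miR-378*, and miR-378b on each array (circles) by day after surgery (evenly spaced), with lines through the mean of the 2 arrays of each surgery and day. miR-378 and miR-378b lay lower in TAB (red) than in sham (blue) on days 5 and 14, whereas miR-378* was highest in TAB on days 3 and 28.

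Day by day, miR-378 fell on days 5 and 14. Here the error is the spread between the 2 arrays of a sample (10 residual degrees of freedom), so each test compares the RNA samples of that day and not the surgeries in general. On day 14 the TAB arrays read 12.10 and 12.34 and the sham arrays 13.45 and 12.95, a 1.97-fold fall (-0.98 ± 0.22, SE; limma adjusted p = 0.00488), and on that day 14.3% of all miRNAs were called lowered. On day 5 the TAB arrays read 12.26 and 11.91 and the sham arrays 13.03 and 12.75, a 1.75-fold fall (-0.81 ± 0.22, SE; limma adjusted p = 0.00893), and 20.5% of all miRNAs were called lowered. In neither case did the arrays of the 2 surgeries overlap, as was so for 32.7% of miRNAs on day 14 and 33.8% on day 5 with TAB below sham. The differences on days 3 and 7 were -0.36 each, with overlapping arrays (adjusted p = 0.211 and 0.227). The shares called lowered were 17.8% on day 3, 16.2% on day 7, and 23.2% on day 28. On day 28 the difference was 0.01, with a 95% interval of -0.46 to 0.47 (adjusted p = 0.985). The day 14 call held in all 10 alternatives of the daily test. That of day 5 did not pass with the 75th percentile (adjusted p = 0.102), with normexp (0.104), or in the processed table (0.0522), while days 3 and 7 passed without scaling (0.0199 and 0.00934) and with a quantile target per surgery (0.00691 and 0.00552), and day 28 passed upward in the processed table (0.54, adjusted p = 0.0499).

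The methods of the study also give a rule on fold change, used there for genes and for miRNAs. It takes a log2 ratio beyond 2 SD of all ratios of a day. There each condition was normalized on its own, whereas the ratios used first here come from quantile normalization over all 20 arrays. By these miR-378 was past the limit on day 14 (limit 0.70) and on no other day. The share of all miRNAs past the limit was 7.22% on day 3, 6.68% on day 5, 7.11% on day 7, 5.17% on day 14, and 6.36% on day 28. miR-378* was within the limit on all 5 days. With a quantile target per surgery, tried for this rule with the data in view, miR-378 was past the limit on days 5 and 14 (ratios -1.26 and -1.47, limits 1.09 and 0.81) and miR-378* on day 14 (-0.91). The shares of all miRNAs past the limit were then 11.3% on day 5 and 13.1% on day 14.

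miR-378* rose on days 3 and 28. On day 3 the TAB arrays read 9.04 and 9.15 and the sham arrays 8.07 and 8.83, a 1.57-fold rise (0.65 ± 0.23, SE; limma adjusted p = 0.0453), and 17.7% of all miRNAs were called raised. On day 28 the TAB arrays read 9.15 and 8.98 and the sham arrays 8.52 and 8.38, a 1.53-fold rise (0.62 ± 0.23, SE; limma adjusted p = 0.0478), and 18.1% were called raised. The sham day 3 arrays differed from each other by more than the TAB arrays did. Both calls lay close to the threshold: with the replicate number as a block the adjusted p was 0.0508 and 0.0548, and without scaling the differences were -0.24 and 0.17 (adjusted p = 0.539 and 0.725). Keeping all flagged probes (0.0524) or subtracting the empty spots (0.0590) ended the day 3 call, and that of day 28 ended in both (0.0561 and 0.0668) and in the processed table (0.0592). On days 3 and 28 both TAB arrays lay above both sham arrays, as was so for 33.6% and 33.5% of miRNAs. On days 5, 7, and 14 the differences were -0.33, 0.07, and -0.23 (adjusted p = 0.275, 0.849, and 0.511), and 19.1%, 17.6%, and 12.3% of all miRNAs were called raised. With a quantile target per surgery miR-378* passed downward on these 3 days (adjusted p = 0.00226, 0.0419, and 0.00529), as it did on day 5 without scaling (0.00323).

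**Figure D2:**
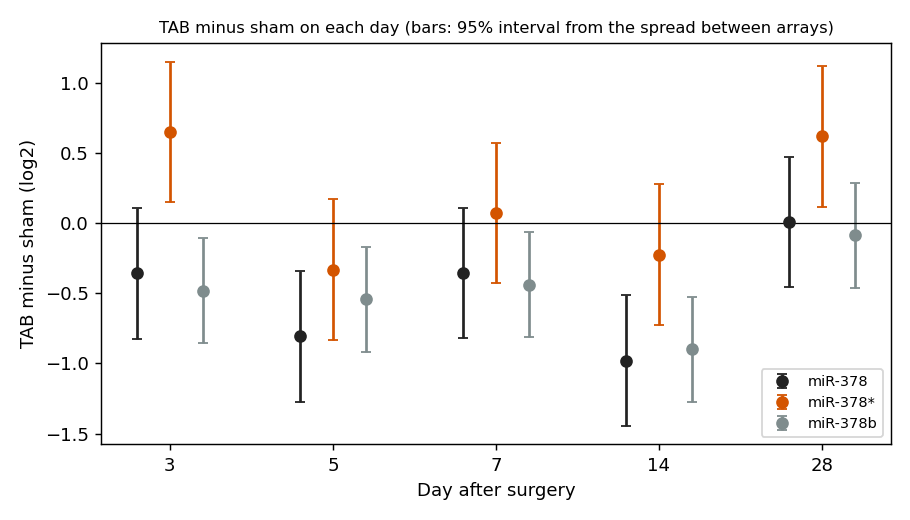
TAB minus sham difference (log2, vertical axis) of miR-378 (black), miR-378* (orange), and miR-378b (grey) on each day after surgery, with bars for the 95% interval from the spread between arrays. miR-378 and miR-378b had their lowest values on day 14 (-0.98 and -0.90), and miR-378* was above miR-378 on every day.

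The 2 strands differed in their measured change, though the test used could not pass 0.05. Because both probes lie on the same array, their difference does not depend on a scaling factor of that array. It was taken as the log2 intensity of miR-378* minus that of miR-378. The size of this difference reflects the probes and says nothing of which strand is more abundant, so only its change was compared. In sham it was -4.47 on day 3, -4.13 on day 5, -4.40 on day 7, -4.40 on day 14, and -4.11 on day 28. In TAB it was -3.47, -3.66, -3.98, -3.64, and -3.50. These values are after quantile normalization, which is not a single factor per array, and there every TAB sample lay above every sham sample. In raw intensities the samples overlapped, with TAB days 7 and 28 at -3.78 and -3.89 and sham day 5 at -3.75. After quantile normalization the summary was as follows. The mean was -4.30 ± 0.17 in sham and -3.65 ± 0.20 in TAB (SD, n = 5 each). TAB was higher by 0.66 ± 0.10 (SE) and on 5 of 5 days. The exact sign-flip permutation test over the 5 days gave a two-sided p = 0.062, the smallest that this design allows, so the test could not pass 0.05.

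The direction of this strand change was the same in all 16 alternatives, but its size was not. In the raw intensities, which have the same strand differences as the 75th percentile scaling, the mean change was 0.39 ± 0.15 (SE). The change was then 0.76 on day 3, 0.02 on day 5, 0.45 on day 7, 0.69 on day 14, and 0.05 on day 28, so on days 5 and 28 it was near 0. Single arrays of the 2 surgeries overlapped both there (-3.97 to -3.24 on TAB, -4.59 to -3.73 on sham) and after normalization (-4.04 to -3.33 on TAB, -4.89 to -3.92 on sham). Subtracting the median of the empty spots before quantile normalization, which was added with the data in view, gave 0.69 ± 0.13 (SE). That value is therefore to be set beside the normalized change and not beside the raw one. Subtraction without quantile normalization was not tried. Without day 14 the change after quantile normalization was 0.63 ± 0.13 (SE).

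**Figure D3:**
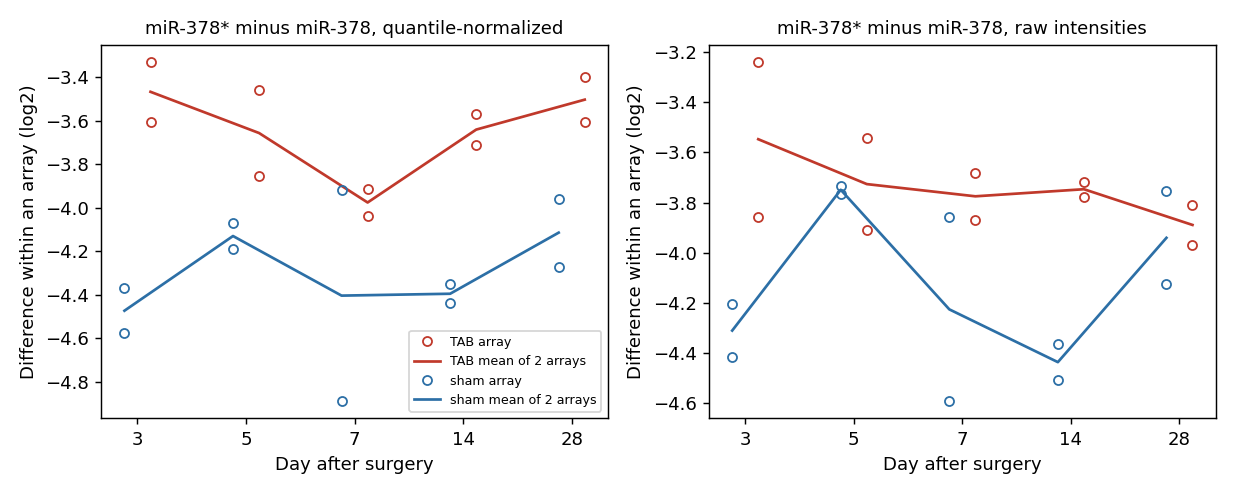
Difference between the log2 intensities of miR-378* and miR-378 on the same array (vertical axis), by day after surgery (evenly spaced), after quantile normalization (left) and in raw intensities (right), with circles for arrays and lines through the mean of 2 arrays. After normalization the TAB samples (red) lay above the sham samples (blue) on every day, by 0.43 to 1.01, and in raw intensities by 0.02 to 0.76.

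Other hairpins with a probe for each strand were read in the same way, after quantile normalization only. Of 47 pairs named X and X* and found on all 20 arrays, 18 had strand changes apart the same way on all 5 days (38.3%), and 10 had TAB and sham samples that did not overlap (21.3%). The miR-378 pair was in both groups, and its change was the 12th largest of the 47, against a median size of 0.31. In 29 pairs both strands had a difference of the same sign, and miR-378 was among the other 18. That sign depended on the scaling. The differences of miR-378 and miR-378* were -0.92 and -0.53 without scaling, and -0.97 and -0.52 with a quantile target per surgery. The pair with the largest change was that of miR-23a (-1.60 ± 0.37, SE), where the star strand had a difference of -0.30 and miR-23a rose by 1.30, and the pair with the smallest was that of miR-210 (0.02 ± 0.06, SE), a miRNA known from low oxygen.

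The probe of miR-378b behaved like that of miR-378. Raw intensities ran from 2637 to 5545 over the TAB and from 4987 to 10227 over the sham arrays. The normalized log2 intensity of miR-378b in TAB was 12.00 on day 3, 12.01 on day 5, 12.23 on day 7, 11.99 on day 14, and 12.26 on day 28. In sham it was 12.48, 12.55, 12.67, 12.89, and 12.35, so that every TAB sample lay below every sham sample. This was so for 16.2% of all miRNAs. miR-378b fell by 0.49 on the log2 scale (SE 0.11; limma adjusted p = 0.0175), and TAB was lower on 5 of 5 days. The 75th percentile ended this call (difference -0.19, adjusted p = 0.208), and it did not pass either in the processed table (0.153), with normexp (0.209), or without day 3 (0.0559), day 5 (0.0549), or day 7 (0.0528). Within arrays, miR-378b minus miR-378 changed by 0.01 ± 0.07 (SE) between sham and TAB (exact sign-flip permutation test, two-sided p = 1). Over the 10 samples the log2 levels of the 2 probes correlated at r = 0.91, and at r = 0.80 after the mean of each surgery was taken out. For miR-378 and miR-378* these values were r = 0.22 and r = 0.73, and the first was 0.51 under the 75th percentile. These are descriptions over samples that share arrays and normalization.

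miR-378 was next set against other miRNAs of heart muscle. miR-1a, miR-133a, and miR-133b are made in heart and skeletal muscle, and miR-208a-3p, miR-208b, and miR-499 lie within myosin heavy chain genes. All 6 were found on all 20 arrays and none was saturated. Of these, 2 rose, 0 fell, and 4 did not pass, with a list median of 0.04 beside -0.02 for all miRNAs, of which 19.3% rose and 21.8% fell. miR-208b rose by 1.18 ± 0.18 (SE; limma adjusted p = 0.00567) and miR-499 by 0.49 ± 0.15 (SE; adjusted p = 0.0482). miR-208b passed in all 19 alternatives, but its rise was 0.75 without scaling, 0.76 with a quantile target per surgery, and 2.12 with empty spots subtracted. The differences were -0.02 ± 0.13 for miR-1a, 0.10 ± 0.20 for miR-133a, -0.04 ± 0.19 for miR-133b, and -0.22 ± 0.12 for miR-208a-3p. Under the 75th percentile 4 of the 6 rose and 0 fell, near the 63.9% of all miRNAs that rose there. Without scaling 1 rose and 1 fell, where 2.91% of all miRNAs rose and 53.9% fell. The call of miR-499 was lost without day 3, 5, 7, or 28 (adjusted p = 0.0940 to 0.124), without replicate 1 (0.0937), and with all flagged probes kept (0.0561). Its difference turned to -0.28 without scaling and with a quantile target per surgery, where it did not pass.

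**Figure D4:**
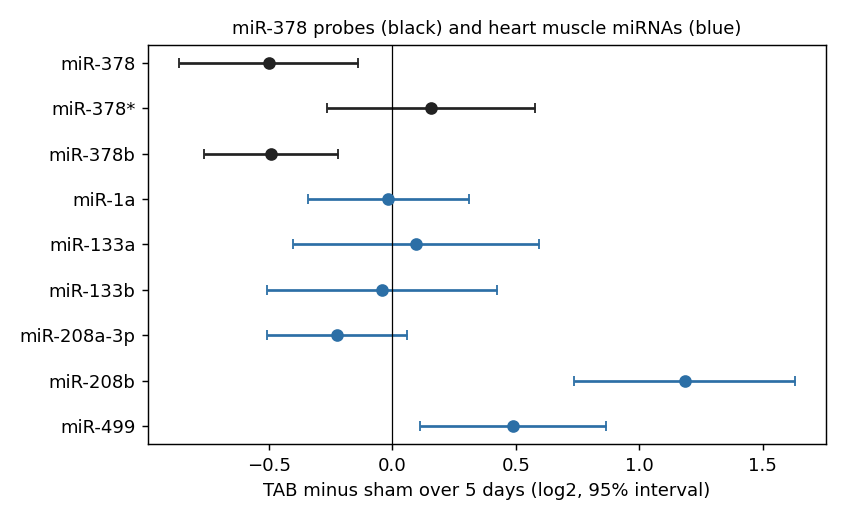
TAB minus sham difference over the 5 days (log2, horizontal axis) with its 95% interval from limma, for the 3 probes named miR-378 (black) and 6 heart muscle miRNAs (blue). miR-378 (-0.50) and miR-378b (-0.49) lay below 0 with their intervals, and miR-208b (1.18) and miR-499 (0.49) above.

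Within arrays, miR-378 fell behind these miRNAs. The log2 intensity of miR-378 minus the median of the 6 changed by -0.14 on day 3, -0.60 on day 5, -0.34 on day 7, -0.61 on day 14, and -0.45 on day 28. The mean change was -0.43 ± 0.09 (SE), lower in TAB on 5 of 5 days (exact sign-flip permutation test, two-sided p = 0.062, the smallest possible). Of 430 miRNAs found on all arrays and outside the list, 11.2% were lower on all 5 days by this measure. It was -0.44 in raw intensities and -0.51 to -0.39 over 16 alternatives. Against single miRNAs the change of miR-378 was lower on 5 of 5 days for miR-133a (-0.60 ± 0.18, SE), miR-133b (-0.46 ± 0.10), miR-208b (-1.68 ± 0.20), and miR-499 (-0.99 ± 0.12). It was lower on 4 of 5 days for miR-1a (-0.48 ± 0.14) and miR-208a-3p (-0.28 ± 0.15). In raw intensities it was lower on 5 of 5 days for each of the 6. For miR-378* the change against the median of the 6 was 0.23 ± 0.17 (SE), lower on 1 of 5 days (exact sign-flip permutation test, two-sided p = 0.188).

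Over time, the level of neither strand shifted beyond its error. The effect of TAB on miR-378 was -0.51 over days 3, 5, and 7 and -0.49 over days 14 and 28, and the change between them was 0.02 ± 0.33 (SE; 95% interval -0.84 to 0.88; limma adjusted p = 0.989). For miR-378* the effects were 0.13 and 0.20 (change 0.07 ± 0.38, SE; 95% interval -0.93 to 1.06; limma adjusted p = 0.976). These intervals are wide. Of all 928 miRNAs, limma called 0% for this change. The late effect of miR-378 joins opposite days, with the largest fall on day 14 and none on day 28. The day 14 effect minus the mean of the other days was -0.60 ± 0.24 (SE; limma on arrays, adjusted p = 0.0975), and that of day 28 was 0.63 ± 0.24 (SE; adjusted p = 0.142). Among all miRNAs the effect of 1 day differed from the other days in 1.40% for day 3, 5.50% for day 5, 2.16% for day 7, 20.4% for day 14, and 6.57% for day 28. Within TAB miR-378 changed by -0.07 ± 0.24 (SE) from early to late days, and within sham by -0.09 ± 0.24 (SE), with adjusted p of 0.979 and 0.904. For miR-378* the changes were 0.06 ± 0.22 and -0.01 ± 0.22 (SE). Among all miRNAs, limma called 0.216% in TAB and 0% in sham between early and late days.

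In the order of the 10 conditions, miR-378 ran from sham day 14 over sham days 7, 3, and 5 to TAB days 7, 28, and 3, sham day 28, and TAB days 14 and 5. Of the 9 steps between neighbours, only those from TAB day 7 to TAB day 28 and from sham day 28 to TAB day 14 had arrays that did not overlap. The second of these, 0.34, was 1.42 times the standard deviation between arrays of 0.24. miR-378* ran from TAB days 3 and 28 over sham day 14, TAB day 7, sham days 5 and 7, TAB day 14, and sham days 28 and 3 to TAB day 5. Its arrays did not overlap only at the step from TAB day 14 to sham day 28 (0.13).

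The miRNAs most like each strand were different. Likeness was Pearson's r of log2 levels over the 10 samples, among 435 other miRNAs found on all 20 arrays. It is a description, since all levels share the arrays and the normalization. The 5 most like miR-378 were miR-1843-5p (r = 0.96), miR-1843b-5p (r = 0.93), miR-378b (r = 0.91), miR-3472 (r = 0.89), and miR-706 (r = 0.84). All 5 were lower in TAB, by 0.49 to 0.80 on the log2 scale, and each passed (limma adjusted p from 0.00254 to 0.0175). Under the 75th percentile miR-378b came first (r = 0.90) and miR-706 was 32nd (r = 0.43). Sequences with the seed in capitals, from RefSeq (GRCm38.p6) and 5′ to 3′, are shown for those whose name matched exactly, to be read beside miR-378b:
miR-1843b-5p: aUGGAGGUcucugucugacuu
miR-3472: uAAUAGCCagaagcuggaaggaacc
miR-706: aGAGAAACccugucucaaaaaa
None of these 3 shares the seed of miR-378b, and their longest run in common with it was 5, 6, and 4 bases, respectively.

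The 5 most like miR-378* were miR-181b (r = 0.94), miR-873 (r = 0.88), miR-30e (r = 0.81), miR-31 (r = 0.80), and miR-125b-5p (r = 0.80). None of these passed between TAB and sham, with differences of 0.01 to 0.32 and adjusted p from 0.124 to 0.982. Under the 75th percentile miR-181b (r = 0.92) and miR-30e (r = 0.91) came first and second. By its likeness to miR-378, miR-378* ranked 180th of the 435 with quantile normalization.

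Markers of other cells moved with the surgery, in a test that called 19.3% of all miRNAs raised and 21.8% lowered. The summed level of 4 miRNAs of fibroblasts was 3979 to 5974 in TAB samples and 1226 to 1645 in sham samples, and 3 of the 4 rose, with miR-21 by 2.88 ± 0.24 and the probe of miR-199a-3p and miR-199b by 2.06 ± 0.08 (SE). The summed level of 7 miRNAs of white blood cells was 1281 to 1617 in TAB and 880 to 1271 in sham, and 5 rose, among them miR-142-3p (1.11 ± 0.16) and miR-223 (0.81 ± 0.22). Among 4 listed for red blood cells 3 rose, with summed levels of 2446 to 3172 and 1516 to 2734, including miR-451 (1.08 ± 0.15) and miR-16 (1.20 ± 0.23). The probe of miR-3107 and miR-486, also of this list, had a difference of -0.19 ± 0.14 and did not pass. Relatives of miR-16 outside this list rose too, miR-15a by 0.92 ± 0.18, miR-15b by 0.73 ± 0.07, miR-195 by 1.28 ± 0.13, and miR-497 by 0.92 ± 0.17. Which cells the signal of miR-16 came from was not tested. Among 4 of vessels miR-126-5p rose (0.75 ± 0.10), with summed levels of 9720 to 14785 and 8534 to 13956. The summed level of the 6 heart muscle miRNAs was 52883 to 81812 in TAB and 54371 to 89649 in sham, so those ranges overlapped. Of 8 tested miRNAs of other tissues, 0 rose and 1 fell, miR-206, which is made in skeletal muscle (-0.45 ± 0.07). Without scaling 1 rose and 1 fell in each of the white and red blood cell lists, 0 of the vessel list passed, 3 of the fibroblast list rose and 1 fell, and 5 of the other tissue list fell, while 6 of the last rose under the 75th percentile. Those counts of 5 and 6 of 8 are near the shares over all miRNAs, of which 53.9% fell without scaling and 63.9% rose under the 75th percentile. Under the 75th percentile 6 of 7 white blood cell, 3 of 4 red blood cell, 3 of 4 vessel, and 3 of 4 fibroblast miRNAs rose. In the red blood cell list 1 fell there, and in the other 3 of these lists 0 fell, beside 11.9% of all miRNAs. Of those counted as raised, miR-142-5p was found on 7 TAB and 0 sham arrays, and miR-144 on 5 and 0. With only miRNAs found on all 20 arrays, 2 of 5 white and 2 of 3 red blood cell miRNAs rose. For vessels and fibroblasts these counts were 2 of 4 and 3 of 4, and 0 fell in these 4 lists. In that setting 25.2% of all miRNAs rose and 28.9% fell. The part of these cells in the fall of miR-378 was not tested.

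**Figure D5:**
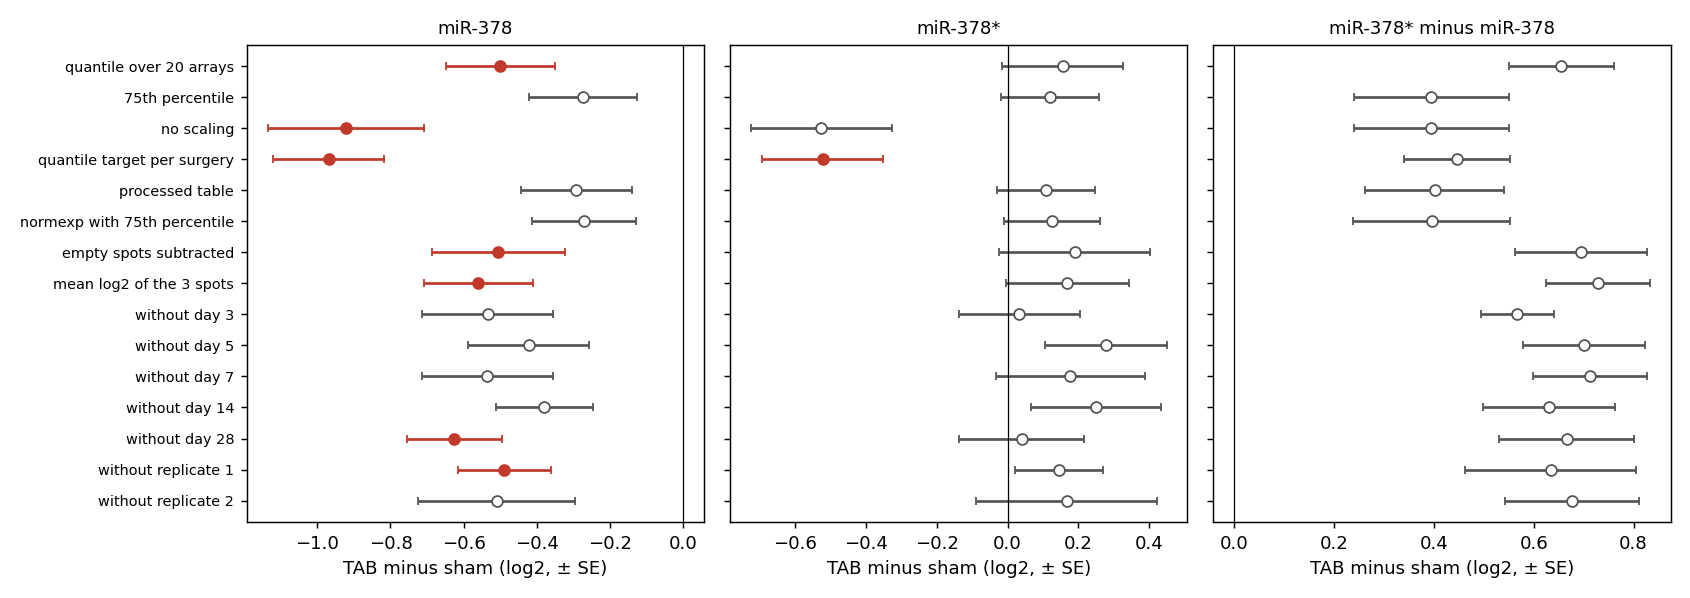
TAB minus sham difference (log2, horizontal axis, ± SE) of miR-378, of miR-378*, and of their within-array difference under each processing setting (vertical axis). Filled red points mark a limma adjusted p under 0.05 for the strands, and the within-array difference has an exact test that cannot reach it. miR-378 stayed below 0 in all settings shown, miR-378* lay on both sides of 0, and the strand difference stayed above 0 (0.39 to 0.73).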

How the data were processed

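Each of 20 OneArray miRNA slides (Mouse & Rat, v3; 3 spots per probe, miRBase release 17) received RNA labelled with Cy5. The deposited raw file holds the intensity of each spot, read by the authors with GenePix, with its flag and no background subtracted. The deposited processed table, an alternative here, holds intensities after a flag filter, the median of spots, and scaling. The 3 spots were combined by their median, 158 probes with negative flags on all spots and arrays were left out, and log2 values were quantile-normalized over 20 arrays with limma 3.58.1 (R 4.3.3). A miRNA was found on an array when at least 2 spots had no negative flag. TAB was compared with sham over 5 samples each with day as a block, and per day on arrays (lmFit, eBayes, Benjamini-Hochberg over 928, threshold 0.05, two-sided). Within-array differences used exact sign-flip tests. Named were both strands, all probes of that name, heart muscle miRNAs, the 5 most like each strand, the extreme strand pairs, and the 2 largest calls of each list. Scripts were tested on simulated data. Members and lists were chosen with earlier results of these data known. Arrays hold no counts, so the number of samples limits precision.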

Additional observations from a re-analysis of the deposited data

Results flagged for a closer look

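miR-378* was flagged because its TAB and sham arrays stood apart in opposite directions on different days. Both TAB arrays lay above both sham arrays on day 3 (0.65) and day 28 (0.62), and below them on day 5 (-0.33). The difference between single days was not tested. Each day's effect against the mean of the other days did not pass on the arrays (limma adjusted p = 0.297 for day 3, 0.176 for day 5, and 0.224 for day 28). Among 10 groups of 5 samples (the 3 probes and 2 within-array differences in each surgery), 0 held a sample far from the others.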

How the results depend on the processing

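The strand difference and the fall of miR-378 against the heart muscle median kept their direction in all 16 alternatives, and miR-378 over 5 days in all 19, but its call was lost in 8. Its difference was -0.27 under the 75th percentile, -0.29 in the processed table, and -0.27 with normexp and the 75th percentile. It was -0.63 to -0.38 when 1 day was left out and -0.51 to -0.49 when 1 array of each pair was left out. miR-378* turned to -0.53 without scaling and -0.52 with a quantile target per surgery. The late minus early effect, never past the threshold, ranged from -0.47 to 0.51 for miR-378 and from -0.35 to 0.49 for miR-378* with 1 day or 1 array left out. Reversals were as follows. Under the 75th percentile they were miR-1a 0.54, miR-133b 0.24, miR-208a-3p 0.0595, and the late change of miR-378 in TAB 0.19 and sham 0.0646. Without scaling they were miR-133a -0.30, miR-499 -0.28, miR-378* -0.24 on day 3 and -0.71 on day 7, and the late change of miR-378 in TAB 0.53. With a quantile target per surgery they were miR-133a -0.29, miR-499 -0.28, miR-378* -0.0276, -0.60, and -0.0658 on days 3, 7, and 28, and miR-378 -0.42 on day 28. In the processed table they were miR-1a 0.55, miR-133b 0.21, miR-208a-3p 0.0107, miR-378* -0.0174 on day 7, and the late change of miR-378 in TAB 0.21. With normexp they were miR-1a 0.54, miR-133b 0.25, miR-208a-3p 0.0633, and the late change of miR-378 in TAB 0.20 and sham 0.0655. With the mean of spots they were miR-378 -0.0013 on day 28 and the late change of miR-378* in sham 0.0052. With 1 day left out miR-1a was -0.15 to 0.0728, miR-133a -0.10 to 0.26, and miR-133b -0.21 to 0.0876, and without replicate 2 miR-1a was 0.0624. The cause of these shifts was not tested.

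Over all miRNAs, 179 were raised and 202 lowered, against 593 and 110 under the 75th percentile, 592 and 113 in the processed table, 589 and 113 with normexp, 110 and 126 among the 436 found on all arrays, 27 and 500 without scaling, and 37 and 634 with a quantile target per surgery. Without day 3, 5, 7, or 28 the counts were 110 and 115, 128 and 132, 111 and 127, and 123 and 128. Whether replicate numbers pair the arrays was not settled: 19 of 45 pairs of groups had correlated deviations above 0.1 (r from -0.28 to 0.42, median r = 0.07). With 20 arrays as samples and the replicate number as a block, miR-378 differed by -0.50 (adjusted p = 0.0026) and miR-378* by 0.16, but this fit counts repeat arrays of 1 sample as samples, so its p is too small. That block ended the daily calls of miR-378* on days 3 and 28.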

Other observations

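miRNAs known from energy metabolism and fat were read beside the miR-378 strands. Of 21 tested, 12 rose and 2 fell, with a median difference of 0.29 against -0.02 for all miRNAs, of which 19.3% rose and 21.8% fell. miR-27b (1.59 ± 0.20, SE) and miR-27a (1.37 ± 0.21), known to restrain fat cell formation, had the largest changes. The 2 that fell were miR-370 (-0.38 ± 0.11) and miR-696 (-0.54 ± 0.15), the latter known in mouse muscle as a repressor of PGC-1α, and they were named after their values were seen. Without scaling 3 of the list rose and 5 fell, where 2.91% of all miRNAs rose and 53.9% fell. Under the 75th percentile 15 rose and 1 fell, near the shares over all miRNAs there (63.9% and 11.9%). Of those counted as raised, miR-33 was found on 1 TAB and 0 sham arrays, and miR-455 on 8 and 1. With only miRNAs found on all 20 arrays, 9 of 16 rose and 2 fell, beside 25.2% and 28.9% of all 436 such miRNAs.

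Of 28 tested miRNAs that, like miR-378, lie within introns of protein-coding genes, 19 rose and 0 fell (median 0.41), beside the same 19.3% and 21.8% over all miRNAs. miR-208b (1.18 ± 0.18, SE) and miR-107 (1.01 ± 0.12), which lies within the pantothenate kinase gene Pank1, had the largest changes. Without scaling 1 rose and 4 fell (2.91% and 53.9% over all miRNAs), and under the 75th percentile 24 rose and 1 fell (63.9% and 11.9%). The rarely found miR-33 is counted here as raised too. With only miRNAs found on all 20 arrays, 15 of 22 rose and 0 fell (25.2% and 28.9% over all such miRNAs). Host mRNAs, among them that of Ppargc1b, were not analysed here.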
